A study of Mus musculus with 12 samples.

Results

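Hepcidin, the bone morphogenetic proteins (BMPs) that drive it and the genes that carry or store iron were followed in the livers of mice recovering from carbon tetrachloride (CCl4). The 10 genes, Hamp, Hamp2, Bmp2, Bmp6, Id1, Tfr2, Tfrc, Slc40a1, Fth1 and Ftl1, were taken by name from the 21936 genes of the count table, and all 10 passed the filter on low counts in every comparison. All mice were male C57BL/6 mice, 6 weeks old on purchase, and all had received CCl4, a hepatocyte toxin that leads to fibrosis, at 1 mL/kg into the peritoneum 2 times per week for 8 weeks. LFG, the liver fibrosis group, was sacrificed when these injections ended. The regression group (REG) was then given tail vein injections of 200 µl phosphate-buffered saline, 2 in each of 4 weeks, while the hADMSCs-Exo group was given 250 µg of exosomes (vesicles released by cultured human adipose mesenchymal stem cells) in the same volume and on the same schedule. Each group had 3 libraries of whole-liver RNA, and the columns headed MSC_E were read as those of hADMSCs-Exo. The hADMSCs group was not analysed here.

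Hepcidin is a peptide hormone of the hepatocyte that binds the iron exporter ferroportin and causes its loss, so that less iron enters the blood. Its gene is switched on by BMP2 and BMP6 from the sinusoidal endothelium, through BMP receptors and SMAD proteins, and by interleukin 6 through STAT3. Iron bound to transferrin is taken up through transferrin receptors, and iron kept in the cell is held in ferritin, a shell of heavy and light chains.

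Hamp and Id1 varied widely between libraries of a group. Hamp, the hepcidin gene, spanned 84.1-fold within REG, and Id1, a BMP target, spanned 10.0-fold within LFG and 10.5-fold within hADMSCs-Exo, with 1 high library in each, but 1.66-fold within REG. Tfrc, the transferrin receptor of dividing and red-cell-forming cells, came nearest to a difference between groups, at 14.7 ± 9.46 FPKM in LFG, 3.49 ± 1.76 in REG and 7.65 ± 2.51 in hADMSCs-Exo (SD, n = 3 each; FPKM is the read count scaled by gene length and library total). With the adjusted p of edgeR's quasi-likelihood test under 0.05 and a log2 fold change of at least 1 in size as the threshold, 0 of the 10 genes changed in any of the 3 comparisons. Of all genes tested, 0.00811% passed for hADMSCs-Exo against REG, 0.00% for REG against LFG and 0.00% for hADMSCs-Exo against LFG. All 8 hepatocyte markers looked at, among them Alb and Ttr, had counts in every library.

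LFG 3 stood apart from the other livers. It correlated with LFG 1 and LFG 2 by 0.834 and 0.874 across genes, against 0.965 between those libraries, and held the smallest total, 13837445 counts, where the others reached up to 19840917. The summed level of 10 Kupffer cell markers was 152 CPM (counts scaled to one library size) in LFG 3 and from 535 to 2520 CPM in the other libraries, and that of 10 markers of stellate cells and myofibroblasts was 49.9 CPM against 85.8 to 2032. Every marker of these lists had counts in LFG 3. The tests against LFG are therefore given with and without it, and the part of cell makeup in them was not tested. In whole-liver RNA, fewer cells of a type and less RNA per cell cannot be told apart.

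**Figure D1:**
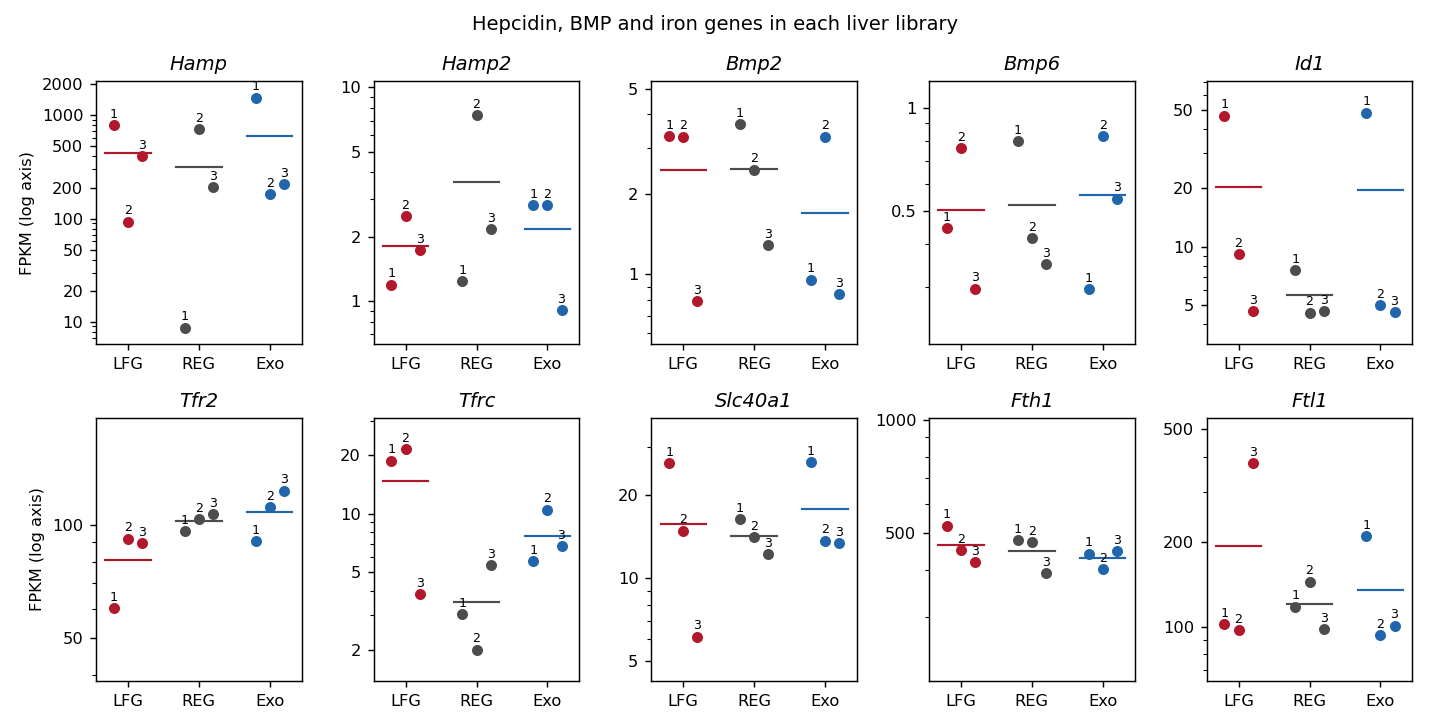
FPKM (log axis, scaled for each gene) of the 10 genes in each library of LFG, REG and hADMSCs-Exo (Exo). Points are libraries with their replicate number and lines are group means (n = 3). Hamp runs from 8.78 FPKM in REG 1 to 1485 FPKM in hADMSCs-Exo 1, while Fth1 stays between 393 and 524 FPKM.

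Mice have a pair of hepcidin genes that lie near each other in the same orientation on chromosome 7. In GRCm38, Hamp (ENSMUSG00000050440) occupies chr7:30942368-30944032 and Hamp2 (ENSMUSG00000056978) chr7:30922372-30924681, both on the minus strand. Their upstream sequences are shown because the BMP and STAT3 inputs act there. Below are the 250 bases before each RefSeq start, 5′ to 3′, on GRCm38.p6, for Hamp at chr7:30944030-30944279 and for Hamp2 at chr7:30924182-30924431, minus strand. For Hamp2 the RefSeq start lies inside the interval given above, so that this stretch does too. Capitals mark the core of the BMP-responsive element with the letters aligned to it in Hamp2, and then a STAT site.
Hamp: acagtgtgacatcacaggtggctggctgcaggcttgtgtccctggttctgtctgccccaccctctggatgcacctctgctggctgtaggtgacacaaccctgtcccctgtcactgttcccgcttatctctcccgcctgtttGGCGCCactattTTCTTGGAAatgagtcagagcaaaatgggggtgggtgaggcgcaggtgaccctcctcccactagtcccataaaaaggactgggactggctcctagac
Hamp2: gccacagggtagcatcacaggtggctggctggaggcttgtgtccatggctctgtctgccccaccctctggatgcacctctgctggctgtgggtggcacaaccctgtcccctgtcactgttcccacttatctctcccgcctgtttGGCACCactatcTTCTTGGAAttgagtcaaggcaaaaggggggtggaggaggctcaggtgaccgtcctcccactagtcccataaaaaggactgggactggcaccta

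These upstream stretches were identical at 89.7% of aligned positions. The core GGCGCC began at -109 relative to the start of Hamp, and the aligned letters in Hamp2, at -106, differ by G4A, counted from 1 at the 5′ end of the 6 letters. The STAT site, searched as TTCNNNGAA on both strands, was found at -97 in Hamp and at -94 in Hamp2. Of all 32851 RefSeq promoter windows of 300 bases, 11.9% hold GGCGCC and 8.3% hold TTCNNNGAA. Among the 7 members with a window in the table (all but Bmp2, Id1 and Slc40a1), Tfrc also held GGCGCC, at -89. The other motifs searched were CACGTG, an E-box found in 7.15% of all windows, and TGACNNNGC, the core of the antioxidant response element, found in 12.4%. Both had a match in Bmp6 alone among the members. A match describes the letters only, and no binding was measured.

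Hamp was measured at 806, 93.4 and 404 FPKM in LFG 1, 2 and 3. In REG it stood at 8.78, 738 and 203 FPKM, and in hADMSCs-Exo at 1485, 172 and 217 FPKM. The highest library belonged to hADMSCs-Exo and the lowest to REG, but the ranges of the 3 groups overlapped. These levels rest on 60 counts in REG 1 and on 630 to 10021 counts in the other libraries, so that counting error is small beside the spread. The log2 fold change of Hamp was 0.87 for hADMSCs-Exo against REG (SE 1.25, adjusted p = 0.834, edgeR), a 1.82-fold higher level. Against LFG it was -0.20 for REG (SE 1.28, adjusted p = 0.966, edgeR) and 0.65 for hADMSCs-Exo (SE 0.98, adjusted p = 0.939, edgeR). The sign turned with single libraries: against REG the value for hADMSCs-Exo was -0.75 without hADMSCs-Exo 1 and 2.46 without REG 2, and REG against LFG ran from -1.77 without REG 2 to 0.43 without REG 1. For hADMSCs-Exo against LFG it was -0.94 without hADMSCs-Exo 1.

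Hamp2, whose product is close to hepcidin in sequence, was far less abundant. It had 12, 24 and 14 counts in the LFG libraries, 12, 85 and 25 in REG and 27, 27 and 9 in hADMSCs-Exo. REG 2 was the highest library at 7.39 FPKM, and the other libraries lay between 0.909 and 2.81 FPKM with the groups overlapping. Its log2 fold change of -0.82 for hADMSCs-Exo against REG (SE 0.69, adjusted p = 0.710, edgeR) became 0.27 without REG 2. REG against LFG gave 1.14 (SE 0.78, adjusted p = 0.603, edgeR) and 0.05 without REG 2. Reads of Hamp and Hamp2 could have been exchanged, since their transcripts of 410 and 420 bases are identical at 92.4% of aligned positions with a shared run of 87 bases. A long noncoding RNA gene on the plus strand, Gm44662, spans both, and the use of strand in counting is not given in the sources used here.

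**Figure D2:**
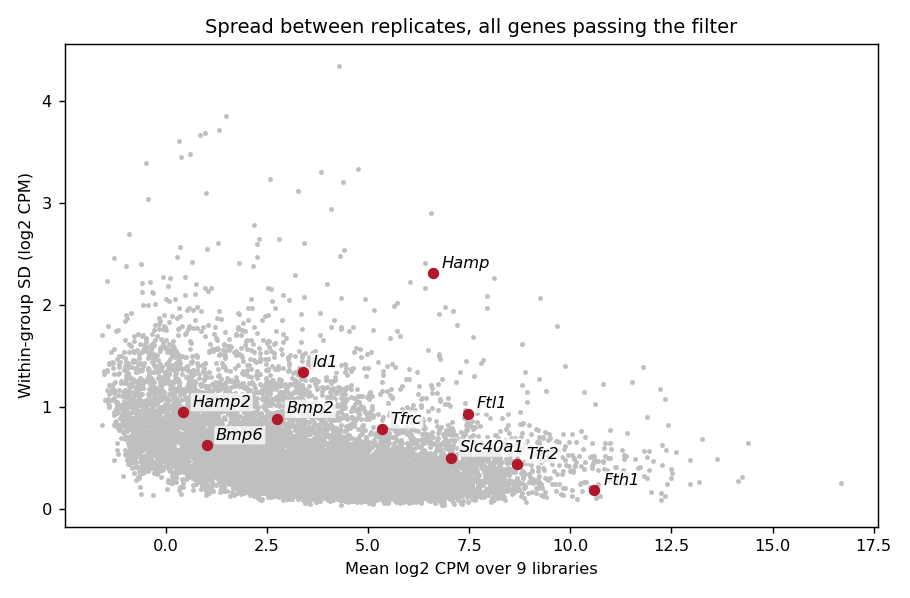
Within-group SD of log2 CPM (vertical axis) against mean log2 CPM over the 9 libraries (horizontal axis) for the 12760 genes that passed the filter (grey) and for the 10 members (red). Hamp has an SD of 2.31 and Id1 of 1.34, against a median of 0.38 over all genes, and Fth1 has 0.18.

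The spread of Hamp between libraries of a group was among the widest of all genes. Its within-group SD was 2.31 on the log2 CPM scale, the 39th largest of 12760 genes, and 99.7% of genes had a smaller one. Id1 followed with 1.34, above 96.0% of genes. Hamp2 (0.95), Ftl1 (0.93), Bmp2 (0.88), Tfrc (0.78), Bmp6 (0.62), Slc40a1 (0.50) and Tfr2 (0.44) also exceeded the median gene, at 0.38. Fth1 was the exception with 0.18, smaller than for most genes. Hamp2 and Bmp6 rest on at most 85 and 53 counts per library.

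The BMP ligands were low in whole liver. Bmp2 (ENSMUSG00000027358, chr2:133552159-133562885, plus strand) was at 3.31, 3.30 and 0.793 FPKM in LFG, at 3.68, 2.48 and 1.29 FPKM in REG and at 0.957, 3.30 and 0.845 FPKM in hADMSCs-Exo. Libraries of about 3 FPKM and of about 1 FPKM stood side by side in each group. Between groups its log2 fold change was -0.62 for hADMSCs-Exo against REG (SE 0.56, adjusted p = 0.725, edgeR), 0.30 for REG against LFG (SE 0.51, adjusted p = 0.846, edgeR) and -0.35 for hADMSCs-Exo against LFG (SE 0.64, adjusted p = 0.954, edgeR). Without hADMSCs-Exo 2 the value against REG was -1.51 and that against LFG -1.22.

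The libraries low in Bmp2 were low in endothelial genes as well. The summed level of 10 markers of sinusoidal endothelium, such as Stab2 and Lyve1, was 295, 279 and 78.6 CPM in LFG, 421, 198 and 151 CPM in REG and 122, 330 and 113 CPM in hADMSCs-Exo, and every marker had counts in every library. LFG 3, hADMSCs-Exo 1 and hADMSCs-Exo 3 were the 3 lowest libraries for both measures. Their part in the level of Bmp2 was not tested.

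Bmp6 (ENSMUSG00000039004, chr13:38345107-38500302, plus strand), the ligand known for the response to iron stores, had between 16 and 53 counts per library. Its level was 0.502 ± 0.239 FPKM in LFG, 0.522 ± 0.244 in REG and 0.555 ± 0.265 in hADMSCs-Exo (SD, n = 3 each). These means lay much closer to each other than the libraries within a group, and the log2 fold changes were 0.04 (SE 0.47), 0.25 (SE 0.51) and 0.27 (SE 0.55) for hADMSCs-Exo against REG, REG against LFG and hADMSCs-Exo against LFG. Part of Bmp6 overlaps Txndc5 and the antisense gene 4930579J19Rik, whose reads could have been counted with it.

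**Figure D3:**
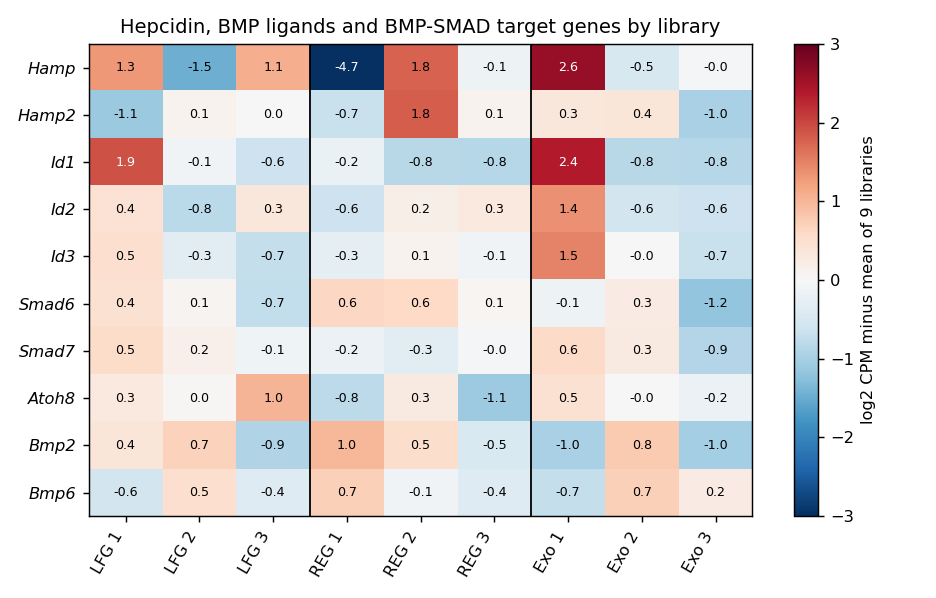
Log2 CPM minus the mean of the 9 libraries for hepcidin genes, BMP-SMAD target genes and BMP ligands (rows) in each library (columns; black lines part LFG, REG and hADMSCs-Exo). In hADMSCs-Exo 1, Hamp, Id1, Id2, Id3 and Smad7 reach their highest level while Bmp2 and Bmp6 are below their means.

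Id1 (ENSMUSG00000042745, chr2:152736251-152737410, plus strand) encodes an inhibitor of helix-loop-helix transcription factors and is transcribed directly under BMP-SMAD signaling. It stood at 46.8, 9.12 and 4.67 FPKM in LFG, at 7.61, 4.59 and 4.69 FPKM in REG and at 48.6, 5.03 and 4.62 FPKM in hADMSCs-Exo. Thus LFG 1 and hADMSCs-Exo 1 were high, the other libraries were below 10 FPKM, and the groups overlapped. The log2 fold change was 1.69 for hADMSCs-Exo against REG (SE 0.83, adjusted p = 0.537, edgeR) and -0.25 without hADMSCs-Exo 1. For REG against LFG it was -1.43 (SE 0.67, adjusted p = 0.475, edgeR), -0.25 without LFG 1 and -1.81 without LFG 3 (adjusted p = 0.0509, edgeR). For hADMSCs-Exo against LFG it was 0.22 (SE 1.06, adjusted p = 0.980, edgeR), which turned to -0.06 with library totals in place of TMM scaling, to -0.16 with the replicate number as a block and to -1.69 without hADMSCs-Exo 1.

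The other BMP-SMAD targets listed, Id2, Id3, Smad6, Smad7 and Atoh8, gave 0 of 5 past the threshold in each comparison. On the log2 CPM scale hADMSCs-Exo 1 was the highest library for Id2 (7.74) and Id3 (6.67), 1.56 and 1.67 above the median of the other 8 libraries, and LFG 1 was second in both. Smad7, an inhibitor of the same pathway, had the same order at smaller size, 3.75 in hADMSCs-Exo 1 and 3.71 in LFG 1. Smad6, another inhibitor, was highest in REG 1 (3.35) and REG 2 (3.34), and Atoh8, a transcription factor gene induced with hepcidin, in LFG 3 (4.71). REG 1, where Hamp was lowest, had Id1 at 3.20 log2 CPM, the fourth highest level.

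Tfr2 and Tfrc encode the transferrin receptors, Tfr2 being the hepatocyte's sensor of iron-loaded transferrin. Tfr2 (ENSMUSG00000029716, chr5:137569840-137587481, plus strand) stood at 60.3, 92.1 and 89.6 FPKM in LFG, at 96.5, 104 and 107 FPKM in REG and at 90.6, 112 and 123 FPKM in hADMSCs-Exo. Each REG library was above each LFG library on this scale, but on TMM-scaled log2 CPM LFG 3 (8.91) lay within the REG range of 8.75 to 8.93. The log2 fold change was 0.03 for hADMSCs-Exo against REG (SE 0.17, adjusted p = 0.964, edgeR), 0.45 for REG against LFG (SE 0.35, adjusted p = 0.648, edgeR) and 0.46 for hADMSCs-Exo against LFG (SE 0.37, adjusted p = 0.875, edgeR). Without LFG 3 the values against LFG were 0.80 for REG (adjusted p = 0.0962, edgeR) and 0.80 for hADMSCs-Exo (adjusted p = 0.173, edgeR).

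Tfrc (ENSMUSG00000022797, chr16:32608920-32632794, plus strand) was at 18.7, 21.4 and 3.86 FPKM in LFG, at 3.05, 2.0 and 5.44 FPKM in REG and at 5.70, 10.5 and 6.79 FPKM in hADMSCs-Exo. LFG 1 and LFG 2 were the highest of the 9 libraries, and LFG 3 lay within the REG range. Every hADMSCs-Exo library exceeded every REG library in FPKM, but on TMM-scaled log2 CPM hADMSCs-Exo 1 (5.11) fell just under REG 3 (5.15). Tfrc was 2.10-fold higher in hADMSCs-Exo than in REG, a log2 fold change of 1.07 (SE 0.37, adjusted p = 0.428, edgeR). REG against LFG gave -1.77 (SE 0.57, adjusted p = 0.386, edgeR) and hADMSCs-Exo against LFG -0.73 (SE 0.51, adjusted p = 0.861, edgeR). It was the single member with an unadjusted p under 0.05, at 0.0185 for hADMSCs-Exo against REG and 0.0171 for REG against LFG, comparisons that share the REG libraries. Of all genes, 10.0% and 11.3% had such a p, and 1 of 10 members is near those shares.

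Without LFG 3, Tfrc fell in REG against LFG, with a log2 fold change of -2.14 (SE 0.37, adjusted p = 0.0167, edgeR). In that fit 10.7% of all 12948 genes tested passed the threshold, so that 1 of 10 members is again near the share of all genes. With limma's voom and quality weights on all libraries it was -2.51 (adjusted p = 0.0133), where 10.3% of genes passed. Over all alternatives run, the adjusted p of Tfrc was between 0.0133 and 0.928 in this comparison and between 0.132 and 1.00 for hADMSCs-Exo against REG. The summed level of 8 cell cycle markers was 464 and 110 CPM in LFG 1 and LFG 2, from 19.0 to 33.0 CPM in REG and hADMSCs-Exo and 7.01 CPM in LFG 3, where Ccnb1 was at 0. The summed level of 8 erythroid markers was 259, 243 and 75.7 CPM in LFG 1, 2 and 3, lowest in LFG 3 as Tfrc was among the LFG libraries. It was 863, 431 and 177 CPM in REG and 112, 274 and 489 CPM in hADMSCs-Exo. The part of these cells in the level of Tfrc was not tested.

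**Figure D4:**
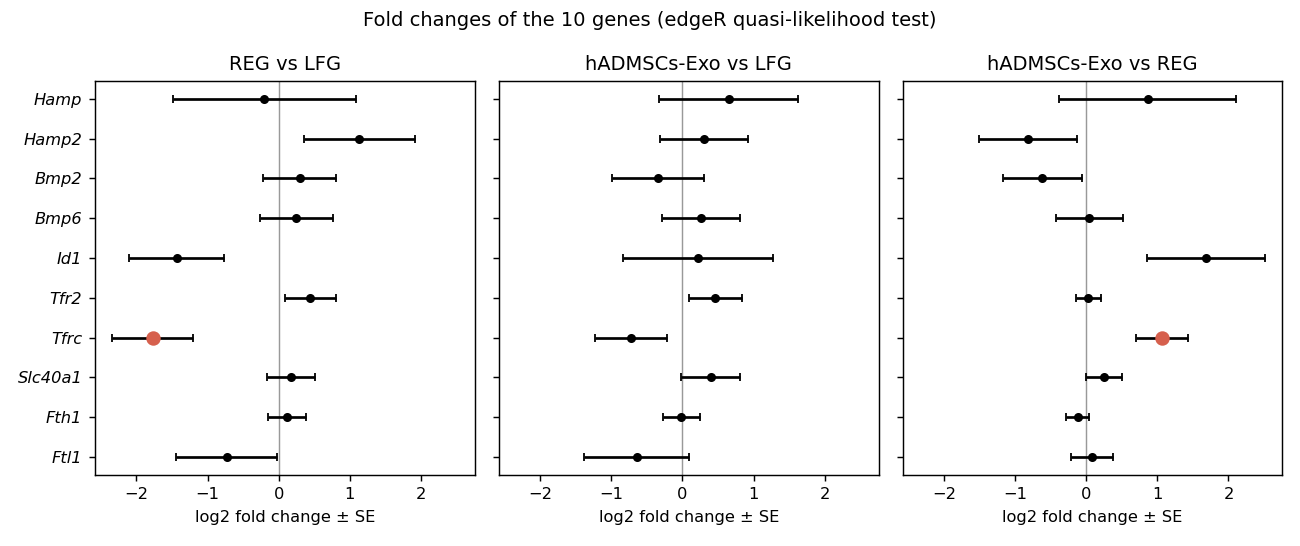
Log2 fold changes (points) with standard errors (bars) of the 10 genes in the 3 comparisons, from edgeR's quasi-likelihood test on 3 libraries per group. The larger red points mark an unadjusted p under 0.05, which Tfrc alone reached, at 1.07 for hADMSCs-Exo against REG and -1.77 for REG against LFG, and no point passes the adjusted threshold.

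Slc40a1 (ENSMUSG00000025993, chr1:45908068-45926523, minus strand) encodes ferroportin, the iron exporter that hepcidin acts on and that macrophages and hepatocytes carry. It was at 26.3, 14.9 and 6.13 FPKM in LFG, at 16.4, 14.1 and 12.2 FPKM in REG and at 26.4, 13.7 and 13.4 FPKM in hADMSCs-Exo. In FPKM LFG 1 and hADMSCs-Exo 1 were high and LFG 3 was low. On TMM-scaled log2 CPM, hADMSCs-Exo 1 (7.86) was still the highest and LFG 3 (6.10) the lowest, but LFG 1 (7.43) lay close to REG 1 (7.25), and the groups overlapped. The log2 fold change was 0.25 for hADMSCs-Exo against REG (SE 0.25, adjusted p = 0.758, edgeR) and -0.11 without hADMSCs-Exo 1. Against LFG it was 0.17 for REG (SE 0.34, adjusted p = 0.868, edgeR), which turned to -0.15 with library totals in place of TMM scaling, and 0.40 for hADMSCs-Exo (SE 0.41, adjusted p = 0.906, edgeR).

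**Figure D5:**
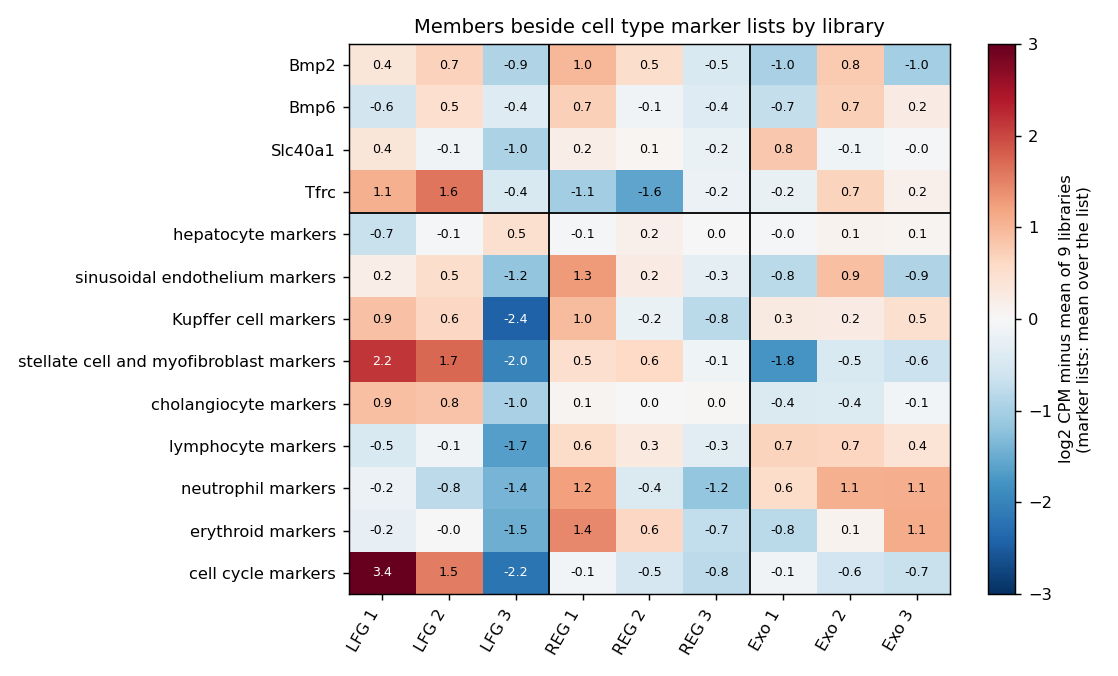
Log2 CPM minus the mean of the 9 libraries for Bmp2, Bmp6, Slc40a1 and Tfrc (upper rows) and for marker lists of cell types and the cell cycle (lower rows, mean over the list) in each library (columns). LFG 3 is below the mean in every list but that of hepatocytes, and the columns of LFG 3, hADMSCs-Exo 1 and hADMSCs-Exo 3 are low for both Bmp2 and sinusoidal endothelium.

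Ferritin heavy chain, which oxidises iron as it enters the shell, was the most even of the members. Fth1 (ENSMUSG00000024661, chr19:9980598-9985098, plus strand) stood at 524, 452 and 420.0 FPKM in LFG, at 479.9, 474 and 393 FPKM in REG and at 442, 403 and 449 FPKM in hADMSCs-Exo. The highest library was 1.33-fold above the lowest, and the groups overlapped. The log2 fold changes were -0.12 (SE 0.16) for hADMSCs-Exo against REG, 0.12 (SE 0.26) for REG against LFG, which turned to -0.05 with library totals, and -0.01 (SE 0.26) for hADMSCs-Exo against LFG. The adjusted p of edgeR's test was 0.825, 0.884 and 0.997.

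Ftl1 (ENSMUSG00000050708, chr7:45457944-45459884, minus strand) encodes the light chain, which aids the formation of the iron core. It was at 102, 97.5 and 379 FPKM in LFG, at 118, 144 and 98.2 FPKM in REG and at 209, 93.2 and 101 FPKM in hADMSCs-Exo. LFG 3 was 3.89-fold above the lowest LFG library and hADMSCs-Exo 1 was the next highest, with the other libraries between 93.2 and 144 FPKM. The log2 fold change was 0.08 for hADMSCs-Exo against REG (SE 0.30, adjusted p = 0.941, edgeR) and -0.34 without hADMSCs-Exo 1. Against LFG it was -0.73 for REG (SE 0.71, adjusted p = 0.714, edgeR) and -0.64 for hADMSCs-Exo (SE 0.74, adjusted p = 0.920, edgeR). Without LFG 3 these became 0.68 (adjusted p = 0.0766, edgeR) and 0.73 (adjusted p = 0.214, edgeR). The annotation names 2 pseudogenes as Ftl1-ps and 2 as Fth-ps, which can share reads with the ferritin genes, and copies under other names were not searched for.

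Compared per length, the median FPKM over the 9 libraries put Fth1 first (449), then Hamp (217), Ftl1 (102) and Tfr2 (96.5), Slc40a1 (14.1), Tfrc (5.70), Id1 (5.03), Bmp2 (2.48), Hamp2 (2.16) and Bmp6 (0.446). Going down this order, the ranges over libraries did not overlap between Tfr2 and Slc40a1, between Id1 and Bmp2 and between Hamp2 and Bmp6, while all other neighbours overlapped. By group medians, Fth1 was first, Hamp second and Bmp6 last in all 3 groups. The order between genes depends on the lengths used for FPKM, such as 410 bases for Hamp, 583 for Hamp2, 3469 for Fth1 and 9000 for Slc40a1. For Hamp2 that length exceeds the transcript of 420 bases given above.

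For the 10 genes together, the median log2 fold change was 0.06 for hADMSCs-Exo against REG, 0.15 for REG against LFG and 0.24 for hADMSCs-Exo against LFG, beside 0.01, -0.07 and -0.06 over all genes tested. No member had groups that did not overlap on the log2 CPM scale in any comparison. Over all genes this occurred in 15.5% for hADMSCs-Exo against REG, 18.9% for REG against LFG and 12.3% for hADMSCs-Exo against LFG. The comparisons with LFG share its libraries, and those with REG likewise.

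Without LFG 3, the members not yet given for that setting stayed short of the threshold against LFG. For REG the log2 fold changes were 0.07 for Hamp, 1.36 for Hamp2, -0.02 for Bmp2, 0.14 for Bmp6, -0.08 for Slc40a1 and 0.29 for Fth1, with an adjusted p of edgeR's test of at least 0.277. For hADMSCs-Exo they were 0.88 for Hamp, 0.49 for Hamp2, -0.66 for Bmp2, 0.16 for Bmp6, -0.15 for Id1, 0.13 for Slc40a1 and 0.15 for Fth1, with an adjusted p of at least 0.456, and Tfrc came to -1.09 (SE 0.28, adjusted p = 0.0616, edgeR). In these fits 1 of 10 members (Tfrc) passed the threshold for REG, beside 10.7% of all genes, and 0 of 10 for hADMSCs-Exo, beside 5.97%. An unadjusted p under 0.05 was reached by 4 members for REG (Tfrc, Id1, Ftl1 and Tfr2), beside 37.3% of all genes, and by Tfrc and Tfr2 for hADMSCs-Exo, beside 28.5%. With library totals in place of TMM, on all libraries, the median of all genes moved to -0.27 for REG against LFG and to -0.18 for hADMSCs-Exo against LFG.

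Beyond the members, 82 names of the iron and hepcidin pathways were listed, of which 79 were in the table and 75 passed the filter. Of these 75 genes, 0 passed the threshold in any comparison. An unadjusted p under 0.05 was reached by 3 higher and 3 lower genes for hADMSCs-Exo against REG (8.0% of them, beside 10.0% of all genes), by 3 higher and 1 lower for REG against LFG (5.33%, beside 11.3%) and by 3 higher and 0 lower for hADMSCs-Exo against LFG (4.0%, beside 5.98%). Bambi, Hjv, Il6ra, Il1b, Steap2, Steap4, Cd163 and Fbxl5 are named from those with such a p whose groups did not overlap, and with all libraries none of them passed the adjusted threshold of edgeR's test. Il6, Ireb2, Hmox1 and Inhbb fall outside that rule and were chosen after their values were seen.

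In the list of BMP-SMAD control of hepcidin, 17 genes were tested, among them Hfe, Tmprss6 and Neo1. Bambi, a receptor without a kinase that dampens BMP and TGF-beta signals, was 2.78, 2.56 and 2.27 log2 CPM in REG and 1.83, 1.73 and 1.5 in hADMSCs-Exo, a log2 fold change of -0.89 (SE 0.24, adjusted p = 0.407, edgeR). In this comparison 7 of 10 markers of stellate cells and myofibroblasts were lower with an unadjusted p under 0.05 and 0 passed the threshold, with a median log2 fold change of -1.14. They summed to 205 to 369 CPM in REG and to 85.8 to 230 CPM in hADMSCs-Exo, each marker with counts in every library, and their part in the level of Bambi was not tested. Hjv, or hemojuvelin, a BMP co-receptor needed for hepcidin expression, was 5.72, 5.38 and 5.87 log2 CPM in LFG and 6.02, 6.66 and 6.25 in REG, with a log2 fold change of 0.67 (SE 0.23, adjusted p = 0.392, edgeR) and of 0.82 without LFG 3 (adjusted p = 0.0501, edgeR). In hADMSCs-Exo it was 5.87, 6.21 and 6.53 log2 CPM.

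Of the inflammatory inputs to hepcidin, 9 genes of 10 were tested. Il6, which encodes interleukin 6, had 2 counts in LFG 3, 2 in hADMSCs-Exo 3 and 0 in the other 7 libraries, where 3 counts per library is the limit that 0 allows. Il6ra, the receptor subunit that binds interleukin 6, was 6.27, 4.97 and 6.16 log2 CPM in REG, 5.73, 6.13 and 6.13 in LFG and 6.52, 6.94 and 6.68 in hADMSCs-Exo. All 3 hADMSCs-Exo libraries were the highest of the 9. Its log2 fold change was 0.81 against REG (SE 0.31, adjusted p = 0.463, edgeR) and 0.71 against LFG (SE 0.21, adjusted p = 0.805, edgeR), or 0.80 without LFG 3 (adjusted p = 0.0619, edgeR). Il1b, the gene of interleukin 1 beta, had a log2 fold change of 1.19 for hADMSCs-Exo against LFG (SE 0.38, adjusted p = 0.805, edgeR) and of 1.21 without LFG 3 (adjusted p = 0.0988, edgeR). REG against LFG gave 0.85 (SE 0.40, adjusted p = 0.476, edgeR), or 0.89 without LFG 3 (adjusted p = 0.159, edgeR). Against REG the value for hADMSCs-Exo was 0.36 (SE 0.33, adjusted p = 0.731, edgeR), and these groups overlapped. By a separate assay, the paper reported lower IL-1β and IL-6 expression in hADMSCs-Exo livers than in LFG and REG livers. In hADMSCs-Exo against LFG, 5 of 6 neutrophil markers tested were higher with an unadjusted p under 0.05 and 0 passed the threshold, with a median log2 fold change of 1.94. Their list of 7 summed to 8.46 to 42.0 CPM in LFG, where Ly6g was at 0 in LFG 2 and Ly6g and Mpo in LFG 3, and to 37.0 to 53.6 CPM in hADMSCs-Exo. Their part in the level of Il1b was not tested.

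Of the genes of iron and heme transport, 20 of 21 were tested. Steap2, a metalloreductase of endosomes, was 3.46, 3.63 and 3.0 log2 CPM in LFG, 4.26, 4.28 and 5.0 in REG and 3.83, 4.69 and 4.49 in hADMSCs-Exo. Against LFG its log2 fold change was 1.18 in REG (SE 0.29, adjusted p = 0.309, edgeR) and 0.99 in hADMSCs-Exo (SE 0.30, adjusted p = 0.805, edgeR), the latter 0.85 without LFG 3 (adjusted p = 0.101, edgeR). Steap4, a related reductase, was 7.58, 7.16 and 7.13 log2 CPM in REG and 7.61, 7.85 and 8.05 in hADMSCs-Exo, a log2 fold change of 0.54 (SE 0.19, adjusted p = 0.430, edgeR). In LFG it was 7.62, 8.03 and 6.55 log2 CPM, overlapping both. Cd163, the macrophage receptor that clears hemoglobin bound to haptoglobin, was 3.78, 4.42 and 2.77 log2 CPM in LFG and 2.64, 1.62 and 1.29 in REG, a log2 fold change of -1.85 (SE 0.54, adjusted p = 0.353, edgeR). Kupffer cell markers summed to 152 to 2520 CPM in LFG and to 535 to 1728 CPM in REG, and their part in this was not tested. Without LFG 3, 4 genes of the pathway lists passed the threshold in REG against LFG, Steap2 higher in REG and Cd163, Hmox1 and Inhbb lower, beside 10.7% of all genes. The log2 fold changes were 1.05 for Steap2 (adjusted p = 0.0375, edgeR), -2.16 for Cd163 (adjusted p = 0.0192, edgeR), -1.34 for Hmox1, the enzyme that breaks down heme (adjusted p = 0.0475, edgeR), and -2.20 for Inhbb, a subunit of activin B and one of the inflammatory inputs (adjusted p = 0.0235, edgeR). With all libraries, Hmox1 gave -0.87 (SE 0.74, adjusted p = 0.671, edgeR) and Inhbb -1.75 (SE 0.77, adjusted p = 0.457, edgeR). Hmox1 had 1882, 1217 and 103 counts in LFG 1, 2 and 3 and 740, 396 and 327 in REG, and Inhbb had 69, 88 and 6 counts in LFG and 18, 15 and 10 in REG. For both genes LFG 3 was below every REG library in counts and the other LFG libraries above. On TMM-scaled log2 CPM this held for Hmox1, but Inhbb in LFG 3 (-0.617) lay just above REG 3 (-0.629). With DESeq2 on all libraries, Steap2 (1.19, adjusted p = 0.0257) and Cd163 (-1.84, adjusted p = 0.0434) passed in the same directions. The share of all genes that passed with DESeq2 was not computed, so these calls cannot be set beside it.

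In ferritin handling and iron sensing, 8 genes of 9 were tested. Fbxl5, which marks the iron regulatory protein Ireb2 for decay when iron is present, was 4.53, 4.57 and 4.51 log2 CPM in LFG and 5.04, 4.85 and 5.10 in REG, a log2 fold change of 0.47 (SE 0.16, adjusted p = 0.392, edgeR) and of 0.49 without LFG 3 (adjusted p = 0.0686, edgeR). Ireb2 itself gave 0.25 (SE 0.24, adjusted p = 0.710, edgeR) in that comparison and 0.41 without LFG 3 (adjusted p = 0.241, edgeR). Among 16 genes of heme synthesis and mitochondrial iron, 0 passed the threshold in any comparison.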

How the data were processed

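Liver RNA was extracted by the authors with Trizol and made into libraries with an NEBNext Ultra kit. Per the labels' processing notes, cutadapt 1.15, HISAT2 2.0.5, HTSeq 0.9.1, DESeq 1.30.0 and GRCm38 were used, with no further parameters given. The authors deposited raw counts per gene for 9 libraries, between 13837445 and 19840917 in total, and beside them the deposited FPKM, which is the same counts over gene length and total (largest relative difference 9.19e-07). At this depth the spread between libraries sets the precision of all but the lowest genes. Replicates differed by more than sampling noise (chi-square per gene 27.0 to 299). The labels do not say that each library is a separate mouse, so p-values measure the spread between these samples.

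Counts of the 2 groups compared were fitted with edgeR 4.0.16 in R 4.3.3 (TMM scaling, edgeR's low-count filter, quasi-likelihood test, two-sided, Benjamini-Hochberg adjustment over all 12337 to 12517 genes tested). The thresholds were an adjusted p of 0.05 and a log2 fold change of 1. Log2 CPM used TMM factors over the 9 libraries and a prior count of 2. With 3 libraries against 3, an exact permutation test cannot give a p below 0.1. Alternatives were RLE size factors, DESeq2 1.42.0, voom of limma 3.58.1 with quality weights, no filter, a filter of 10 counts in each library, a single fit of the 9 libraries, a block for the replicate number, calls without the fold change limit, and the omission of each library. Scaling by library totals was chosen after seeing the data. The fit was tested on simulated data, and the outcome is not reported here. The 10 members and the lists of pathway and marker genes were chosen with earlier results of these data known. All members are named, with up to 2 rising and 2 falling genes per pathway list and comparison, those of smallest p among genes with an unadjusted p under 0.05 and groups that do not overlap. The results of 2 genes under this rule are not reported here. Same-numbered libraries of hADMSCs-Exo and LFG deviated together (r of 0.101, 0.308 and 0.180 across genes). The sample titles name no pairs, and LFG was sacrificed before the exosome injections began. The replicate block was therefore run as an alternative only. The values reported come from fits without the block. Sequences came from RefSeq tables and were handled with Python 3.11.15. Plots were drawn with matplotlib 3.10.9.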

Additional observations from a re-analysis of the deposited data

How the results depend on the processing

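Of 418 values of the 10 genes under the alternatives, 371 kept their direction and their side of the threshold, 45 turned sign and 2 passed the threshold, both for Tfrc in REG against LFG. With 3 libraries per group, single libraries set most signs, and the cause was not tested. Hamp2 had under 10 counts in hADMSCs-Exo 3 and gave no value under that filter.

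With voom and quality weights, signs turned for Ftl1 (-0.14) in hADMSCs-Exo against REG, for Hamp (0.62), Bmp2 (-0.17), Bmp6 (-0.21) and Ftl1 (0.53) in REG against LFG, and for Hamp2 (-0.0103), Bmp6 (-0.0666), Id1 (-0.43), Fth1 (0.0841) and Ftl1 (0.36) in hADMSCs-Exo against LFG. With no filter Fth1 was 0.0046 in hADMSCs-Exo against LFG. With library totals Slc40a1 (-0.15) and Fth1 (-0.0543) turned in REG against LFG and Id1 (-0.0625) in hADMSCs-Exo against LFG. With the replicate block Id1 was -0.16 in hADMSCs-Exo against LFG, and no call changed there.

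Leaving out 1 library each, values that turned sign ran, for hADMSCs-Exo against REG, from -0.75 to 2.46 (Hamp), -1.22 to 0.27 (Hamp2), -0.33 to 0.47 (Bmp6), -0.25 to 2.14 (Id1), -0.12 to 0.17 (Tfr2), -0.11 to 0.41 (Slc40a1) and -0.34 to 0.29 (Ftl1). For REG against LFG they ran from -1.77 to 0.43 (Hamp), -0.0374 to 0.64 (Bmp2), -0.14 to 0.67 (Bmp6), -0.0829 to 0.51 (Slc40a1) and -1.13 to 0.68 (Ftl1). For hADMSCs-Exo against LFG they ran from -0.94 to 1.11 (Hamp), -0.0380 to 0.66 (Hamp2), -0.10 to 0.70 (Bmp6), -1.69 to 1.42 (Id1), -0.10 to 0.15 (Fth1) and -1.06 to 0.73 (Ftl1).

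Members past the threshold in REG against LFG were 0, 1 with voom and 0 to 1 with a library left out, and pathway genes were 0, 2 with DESeq2, 3 with voom and 0 to 4 with a library left out. In the other comparisons both counts were 0 under every alternative. For REG against LFG, 10.3% of all genes passed with voom and 10.7% without LFG 3, and the share with DESeq2 was not computed. Members with an unadjusted p under 0.05 were 1 for hADMSCs-Exo against REG, 0 with all libraries in one fit and 0 to 2 with a library left out. For REG against LFG they were 1, 2 with DESeq2, 2 with voom and 0 to 4, and for hADMSCs-Exo against LFG 0, 1 with voom and 0 to 2. Pathway genes with such a p were 6 for hADMSCs-Exo against REG, 12 with voom, 3 in one fit and 4 to 14 (14 without hADMSCs-Exo 1). For REG against LFG they were 4, 26 with voom, 7 in one fit and 2 to 19. For hADMSCs-Exo against LFG they were 3, 6 with DESeq2, 19 with voom, 8 in one fit and 2 to 19. Both upper values are those without LFG 3, where 37.3% of all genes had such a p for REG and 28.5% for hADMSCs-Exo. With the other alternatives this share was not computed, so those counts of members and pathway genes are descriptions only.

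The replicate numbers of hADMSCs-Exo and REG (r of 0.159, 0.0094 and 0.0336) and of REG and LFG (0.415, -0.202 and 0.305) were not read as pairs either. There the replicate block left 0 members past the threshold, and in REG against LFG it left 0 members and 2 pathway genes with an unadjusted p under 0.05. In these comparisons 2 and 4 of 6 libraries correlated best with their own number, a hint from the data and not from the design.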

Other observations

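Over the 9 libraries, the genes whose log2 CPM was most like that of Hamp were Sf3b4 (Pearson r 0.911), Haus1 (0.891), Rlim (0.874), 2610301B20Rik (0.871) and Ecpas (0.871). Those most like Id1 were Mllt1 (0.968), Ptpdc1 (0.955), Slfn4 (0.934), Nsd2 (0.930) and Cd9 (0.928). These values are descriptions over 9 libraries, taken as the highest of 12760 genes, and the points share their library and depth. Slfn4, for example, was 4.40 log2 CPM in LFG 1 and 4.43 in hADMSCs-Exo 1, the libraries high in Id1, and between 1.28 and 2.73 in the other 7. Nsd2 was 6.20 and 6.19 in those libraries and between 3.76 and 5.46 in the others. For Hamp the likeness rests on smaller differences, Sf3b4 running from 3.72 log2 CPM in REG 1 to 4.40 in hADMSCs-Exo 1.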
